A study of Homo sapiens with 3 samples.

Results

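The SLC25 genes encode the mitochondrial carriers, and their RNA was measured in HEK293T, a human embryonic kidney cell line. Members were the protein-coding genes named SLC25A followed by a number, and 48 such genes were found among 19926 protein-coding genes and 61193 genes of all kinds. The RNA-seq samples used here were 3 biological replicates of 1 condition, HEK293T cells with no treatment named, collected 24 h after seeding of 1500000 cells per flask. From RNA of 3000000 cells per sample, libraries were prepared with a QuantSeq 3′ kit, whose reads come from near the 3′ end of polyadenylated RNA. The study mapped i-motifs (iMs) and G-quadruplexes (G4s), folded structures of C-rich and G-rich DNA, and used RNA-seq to relate them to gene expression. With a single condition there were no groups to compare, so the values are descriptions with the spread (SD) over the 3 replicates and no test was made.

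Mitochondrial carriers sit in the inner mitochondrial membrane, which small molecules cannot cross freely, and each exchanges or moves particular metabolites between cytosol and matrix. A typical carrier is built of 3 related repeats, each with a signature that begins with proline and an acidic residue. The ADP/ATP carriers bring ADP in and send ATP out for the rest of the cell, while other members move phosphate, amino acids, organic acids, iron, nucleotides and cofactors. The carriers are made in the cytosol and brought into the inner membrane by the TOM complex, the small TIM chaperones and the TIM22 complex.

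The libraries held 6262175 to 8521624 counts, and a count of 0 allowed up to 3 counts, or 0.352 to 0.479 CPM (counts scaled to the same total in each library), for counting error alone. Replicate 3 stood apart in its mitochondrially encoded genes, which took 25.8% of its counts against 9.59% and 5.70% in replicates 1 and 2. Levels between genes are given as TPM, the authors' counts per transcript length scaled to the same total in each library and summed per gene. Of 7 genes known in this line, PAX2 (8.96 TPM), LHX1 (1.66 TPM) and KRT8 (1.35 TPM) reached a mean of 1 TPM, whereas NEFL, with a 3′ end of its own, had 0 counts and VIM, KRT18 and NEFM, with shared or partly shared ends, had at most 6. Leukocyte, erythroid and adipocyte markers (9 genes) had 0 counts and hepatocyte markers summed to at most 0.673 TPM in a replicate. Of the fibroblast markers, COL1A1, a collagen, was at 24.8 TPM. COL1A2 had 0 counts and DCN 0, 1 and 0, both with 3′ ends of their own. Among the tubule markers, LRP2, a receptor, was at 5.34 TPM. AQP2, with a 3′ end of its own, and UMOD and SLC34A1, with partly shared ends, had 0 counts. In bulk RNA, fewer cells with a transcript and less of it per cell cannot be told apart.

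A single ADP/ATP carrier gene held nearly all of the RNA counted for the family. SLC25A5, at chrX:119468422-119471396 on GRCh38 (plus strand), had 46431, 43260 and 43153 counts, or 7829, 8633 and 4950 TPM (7137 ± 1936, SD, n = 3). It ranked 11th among protein-coding genes by mean TPM and held 93.8% ± 0.52 of the family's TPM, or 88.1% ± 0.90 of its CPM. All of these counts lay on its canonical transcript of 1307 bases, and none of the 50-base words of its last 300 bases occurred in a transcript of another gene. The family shares cover only RNA that was counted. The 3′ ends of 19 members lay wholly, and of 12 partly, in other listed transcripts. Low counts of those members do not show their level.

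Of the other ADP/ATP carriers, SLC25A4 and SLC25A31 were far lower, and SLC25A6 could not be read. SLC25A4, the form known from heart and skeletal muscle, had 27, 25 and 53 counts and a mean of 1.54 ± 0.23 TPM. The log2 ratio of SLC25A5 to SLC25A4 was 12.50, 12.51 and 11.43 in the 3 replicates, a mean of 12.15 ± 0.63 and a ratio of 4537 (1343 by CPM, since SLC25A4 is listed with a longer transcript). SLC25A31, a form known from testis, had 1, 2 and 0 counts. SLC25A6, the form expressed in many tissues, had 0 counts in every replicate at chrX:1386152-1392113. That locus lies in the pseudoautosomal region, which is the same on X and Y, and the tables hold a second listing of 3 SLC25A6 transcripts with 33, 31 and 34 counts (4.70 ± 1.06 TPM). How reads that fit both copies were counted is not stated, so the level of SLC25A6 was not shown by these counts. The proteins of the forms are alike: by translation of the annotated coding sequences, SLC25A5 was identical to SLC25A6 at 91.9%, to SLC25A4 at 88.9% and to SLC25A31 at 70.8% of aligned residues of the shorter protein.

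The bases before the start sites of the ADP/ATP carriers and of SLC25A23, a high member with 2 adjoining C-rich matches, are shown. They run 5′ to 3′ on the coding strand, from RefSeq (GRCh38.p14), 250 bases each. Capitals mark the C tracts of a putative iM-forming sequence, defined as 4 tracts of at least 3 C (or G, on the other strand) with loops of 0 to 7 bases, and the letters TATAAA.
SLC25A5, chrX:119468194-119468443 (+): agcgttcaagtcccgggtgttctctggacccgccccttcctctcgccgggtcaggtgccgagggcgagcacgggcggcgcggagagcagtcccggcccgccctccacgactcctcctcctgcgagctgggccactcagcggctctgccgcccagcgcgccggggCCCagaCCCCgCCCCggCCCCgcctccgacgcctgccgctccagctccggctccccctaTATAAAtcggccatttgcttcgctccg
SLC25A4, chr4:185143016-185143265 (+): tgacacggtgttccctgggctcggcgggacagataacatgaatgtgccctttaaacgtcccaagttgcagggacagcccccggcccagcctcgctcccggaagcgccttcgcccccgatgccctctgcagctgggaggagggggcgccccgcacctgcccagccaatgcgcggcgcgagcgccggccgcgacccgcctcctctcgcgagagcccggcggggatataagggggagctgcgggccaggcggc
SLC25A6, chrX:1392114-1392363 (−): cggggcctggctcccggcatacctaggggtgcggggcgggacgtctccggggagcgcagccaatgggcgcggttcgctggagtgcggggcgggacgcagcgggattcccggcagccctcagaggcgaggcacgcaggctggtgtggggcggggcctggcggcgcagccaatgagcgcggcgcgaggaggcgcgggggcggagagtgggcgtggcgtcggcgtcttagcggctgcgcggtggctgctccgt
SLC25A31, chr4:127730150-127730399 (+): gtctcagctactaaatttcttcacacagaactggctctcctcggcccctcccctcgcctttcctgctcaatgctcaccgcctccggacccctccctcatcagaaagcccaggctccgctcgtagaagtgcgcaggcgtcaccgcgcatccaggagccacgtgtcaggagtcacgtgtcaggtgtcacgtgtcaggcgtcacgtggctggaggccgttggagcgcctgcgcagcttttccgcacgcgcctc
SLC25A23, chr19:6459793-6460042 (−): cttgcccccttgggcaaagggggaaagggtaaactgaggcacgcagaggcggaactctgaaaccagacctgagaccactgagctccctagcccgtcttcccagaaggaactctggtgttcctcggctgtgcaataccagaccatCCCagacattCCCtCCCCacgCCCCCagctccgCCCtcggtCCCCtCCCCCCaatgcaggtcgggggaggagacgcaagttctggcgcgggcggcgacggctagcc
SLC25A5 carried 1 such C-rich sequence, from −86 to −66 relative to the start site, and TATAAA, searched on the coding strand, from −27. It also held 5 matches of GGGCGG or CCGCCC, the letters of a GC box, which can overlap each other and the C tracts. SLC25A6 held 4 of the GC-box letters but no run of 4 tracts, and SLC25A4 and SLC25A31 held neither. SLC25A23 carried 2 C-rich matches, from −106 to −81 and from −73 to −55. The bases between them fit a loop of up to 7 bases, so the matches form 1 continuous run of C tracts. The second match reaches 4 tracts only by taking its last run of C as 2 tracts with a loop of 0 bases.

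Across the family such sequences were about as frequent as elsewhere. RefSeq windows from 250 bases before to 50 after the start site were matched for 40 of the 48 members, and 15 of these (37.5%) held 4 tracts on either strand, against 38.9% of 15304 protein-coding genes with a window and 29.7% of all 27195 genes. Among expressed members 6 of 17 (35.3%) held one and among the others 9 of 23 (39.1%), against 42.3% of expressed protein-coding genes. Besides SLC25A5 and SLC25A23, the expressed members with a match were SLC25A3, SLC25A12, SLC25A24 and SLC25A51. TATAAA occurred in the 250 bases before the start in 3 members (7.5%), against 8.34% of protein-coding genes. GGGCGG or CCGCCC occurred there in 30 members (75%), against 63.0% of protein-coding genes. The windows had a median GC content of 65.8%, against 62.3% for protein-coding genes. A match describes letters only and does not show that a structure forms in cells.

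Of the 48 members, 20 (41.7%) were expressed at a mean of at least 1 TPM, against 38.2% of protein-coding genes. With the quartiles of all 13296 expressed genes as bounds (2.40 and 24.1 TPM), 7 members (14.6%) were in the high category, against 12.5% of protein-coding genes, 10 were medium and 3 low. The median level of the expressed members was 12.3 TPM and that of expressed protein-coding genes 10.5 TPM. At the other end, 21 members (43.8%) had at most 3 counts in every replicate, against 50.9% of protein-coding genes, and 12 of them had 0. The remaining 7 lay between these bounds: SLC25A18, SLC25A26, SLC25A30, SLC25A34, SLC25A44, SLC25A45 and SLC25A48. These shares were close to those of protein-coding genes as a whole.

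**Figure D1:**
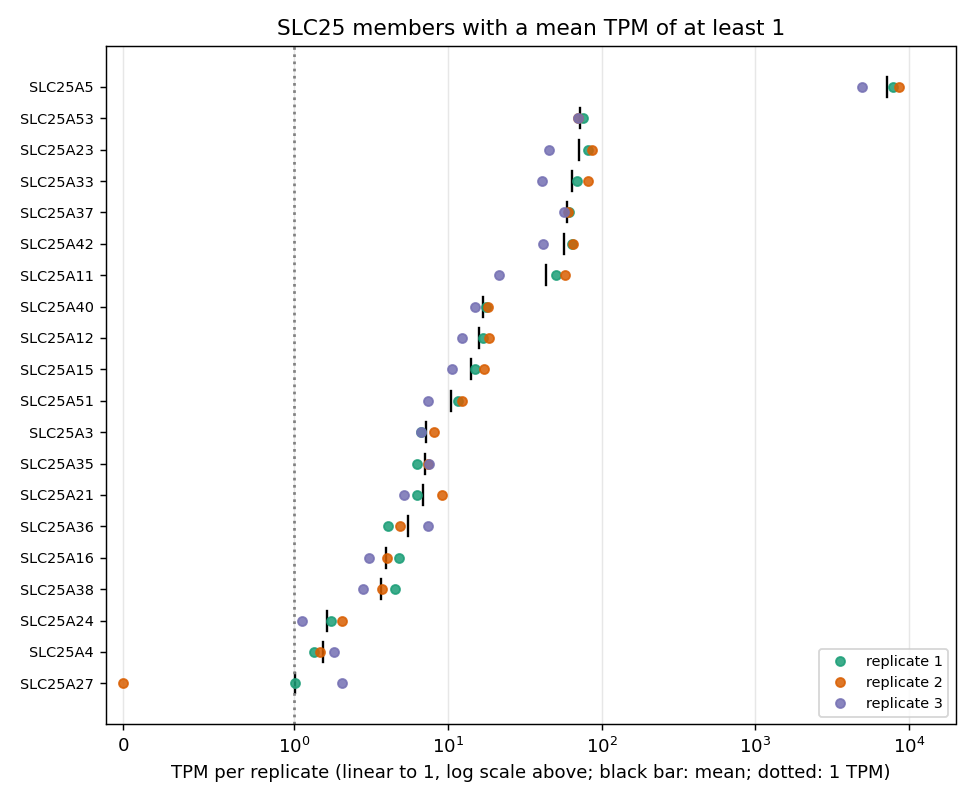
TPM of each of the 20 expressed SLC25 members in each replicate (points) with the mean (black bar), on an axis that is linear to 1 and logarithmic above. SLC25A5 lies at 4950 to 8633 TPM, all other members at or below 86.9 TPM, and replicate 3 (purple) is the lowest for most members.

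Below SLC25A5, 6 members lay between 43.1 and 71.9 TPM. SLC25A53, a little studied carrier, had 366, 261 and 482 counts (71.9 ± 3.31 TPM), of which 67.3% lay on a listed transcript of 731 bases without a defined coding sequence. Its CPM of 50.1 ± 7.64 ranked 6th in the family and its TPM 2nd. SLC25A23, a calcium-regulated ATP-Mg/phosphate carrier, had 1241, 1134 and 987 counts (71.2 ± 22.6 TPM). SLC25A33, a pyrimidine nucleotide carrier listed with a single transcript, had 1204, 1208 and 1060 counts (63.8 ± 20.6 TPM). On the TPM scale SLC25A53 did not differ from SLC25A23 beyond the spread of the log2 ratio (0.07 ± 0.49), and SLC25A23 exceeded SLC25A33 in 3 of 3 replicates (0.16 ± 0.08). Without division by length neither held: by CPM SLC25A53 was below SLC25A23 (log2 −1.64 ± 0.55), and SLC25A23 was above SLC25A33 in 1 of 3 replicates (−0.05 ± 0.08). SLC25A37 (mitoferrin-1), which brings iron into mitochondria, had 780, 642 and 1121 counts (59.5 ± 2.34 TPM). SLC25A42, a carrier of coenzyme A, had 421, 349 and 551 counts (56.8 ± 13.3 TPM). SLC25A11, the oxoglutarate carrier of the malate-aspartate shuttle, had 385, 375 and 242 counts (43.1 ± 19.2 TPM) and was lowest in replicate 3. By TPM SLC25A37 lay within the spread of SLC25A33 and of SLC25A42, but by CPM it was above SLC25A42 in 3 of 3 replicates (log2 0.93 ± 0.08). SLC25A42 was above SLC25A11 in 3 of 3 replicates by TPM (log2 0.49 ± 0.41) and in 2 of 3 by CPM (0.40 ± 0.69).

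Next in TPM, 4 members lay between 10.4 and 16.9 TPM. SLC25A11, listed with 1692 bases, was above SLC25A40, listed with 4056, by 1.23 ± 0.62 in log2 TPM but not by CPM (−0.03 ± 0.62). SLC25A40, a close relative of the glutathione carrier SLC25A39, had 323, 285 and 404 counts (16.9 ± 1.78 TPM). SLC25A12 (aralar), an aspartate/glutamate carrier of the malate-aspartate shuttle, had 258, 237 and 218 counts (15.9 ± 3.17 TPM). SLC25A15, the ornithine carrier of the urea cycle, had 251, 248 and 266 counts (14.2 ± 3.29 TPM). Its last 300 bases were its own at 100% on its strand, but at 49.3% with the opposite strand included. Of their 50-base words, searched on both strands, 41.0% also occurred in another listed gene, ENSG00000290476. Reads on bases covered on both strands could be told apart only if strand was used. SLC25A40 and SLC25A12 did not differ beyond their spread by TPM (log2 0.11 ± 0.15), but SLC25A40 was higher in 3 of 3 replicates by CPM (0.49 ± 0.34). SLC25A12 exceeded SLC25A15 in 3 of 3 replicates by TPM (0.17 ± 0.05) but in 1 of 3 by CPM (−0.10 ± 0.17). SLC25A51, the NAD carrier, had 98, 88 and 93 counts (10.4 ± 2.61 TPM), nearly all on a transcript without a defined coding sequence. Of the 50-base words at the 3′ end of its canonical transcript, 49.8% also occurred in SLC25A52, a near-identical gene with 0 counts. The transcript that held the counts was not searched, so a split of counts between the pair was not tested.

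The other 9 expressed members lay between 1.02 and 7.17 TPM. SLC25A3, the phosphate carrier, had 172, 159 and 237 counts (7.17 ± 0.85 TPM), of which 90.3% lay on a listed transcript of 6087 bases with only 46 bases of its own. With the counts of its pseudogenes added its level was 12.2 TPM. SLC25A36, the other pyrimidine nucleotide carrier, had 62, 59 and 176 counts (5.46 ± 1.78 TPM), with replicate 3 well above the others. By CPM with mitochondrial genes left out, SLC25A36 had the widest relative spread among members with at least 50 counts in every replicate. It had 11.3% of its last 300 bases to itself. SLC25A21, the oxodicarboxylate carrier, had 106, 131 and 130 counts (6.88 ± 2.02 TPM), and its last 300 bases are overlapped in full by PAX9 on the opposite strand, so reads of the pair could be told apart only if strand was used. SLC25A35 (7.05 TPM), SLC25A16 (3.97 TPM) and SLC25A38 (3.68 TPM, a carrier of glycine for heme synthesis) were also in this range. SLC25A24, a second ATP-Mg/phosphate carrier, had 22 counts in each replicate (1.63 ± 0.47 TPM). SLC25A27, an uncoupling-protein-like carrier, had 3, 0 and 9 counts (1.02 ± 1.02 TPM), and without replicate 3 its mean was 0.502 TPM and it was no longer expressed by this bound. Over the whole order of 20 expressed members, 9 of 19 neighbouring pairs differed beyond the SD of their log2 ratio in the same direction in every replicate, and 10 did not. Of these 9, 4 also did so by CPM and in 4 the mean difference turned, so the order of close members rests on the division by length.

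Counts lay on a small part of the listed transcripts. The tables list 376 transcripts of the members, and 175 of them (46.5%) have no exonic base outside other listed transcripts on the same strand. Those 175 transcripts held 0 of the 150721 counts of the family, and all counts lay on 58 transcripts. A member's 3′ end was classed by the share of the last 300 exonic bases of its canonical transcript that lie in no other listed transcript on the strand. Of 17 members whose 3′ end was wholly their own, 13 were expressed (76.5%), against 53.4% of protein-coding genes of that kind. Of 12 with a partly shared end, 4 were expressed (33.3%), against 33.6%. Of 19 with a wholly shared end, 3 were expressed (15.8%), against 26.1%. Counts of at most 3 in every replicate were found in 3 members with an own end (17.6%, against 36.7%), in 6 with a partly shared end (50%, against 54.6%) and in 12 with a shared end (63.2%, against 62.5%). The 3 with an own end include SLC25A6, whose class does not take in its second listing. The settings of the counting step for reads on shared bases are not stated, and their part in these values was not tested.

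**Figure D2:**
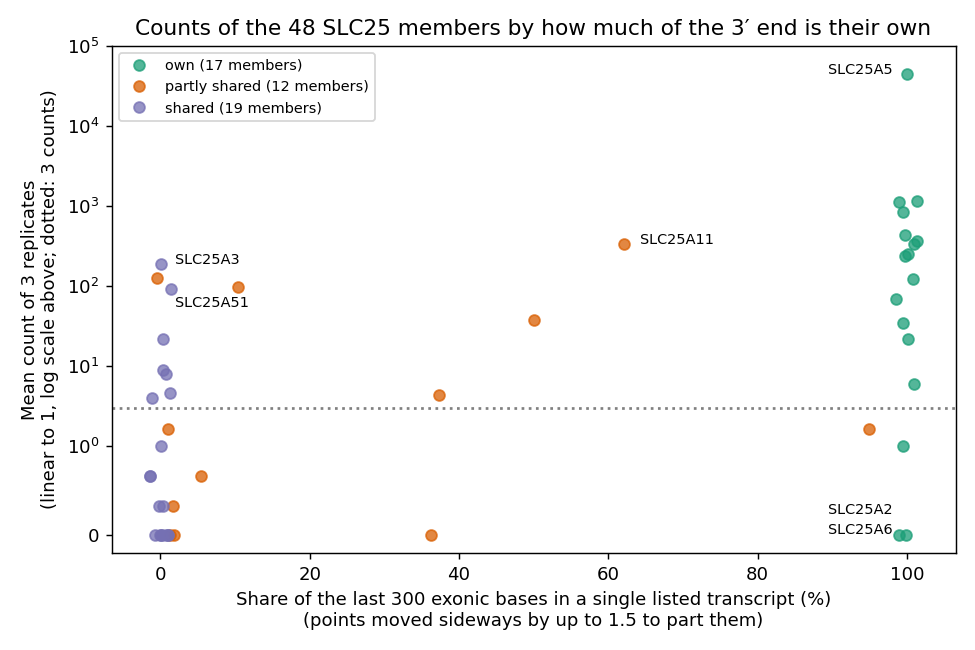
Mean count of the 3 replicates for each of the 48 members (vertical axis, linear to 1 and logarithmic above) against the share of its last 300 exonic bases held by a single listed transcript (%), coloured by 3′ end class. Members with an own end reach from 0 counts (SLC25A2 and SLC25A6) to 44281 (SLC25A5), and those with a wholly shared end reach 189 (SLC25A3) at most. The class of SLC25A6 does not take in its second listing, so its 0 gives no level.

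Of the low members, some had 3′ ends of their own. For SLC25A2, a basic amino acid carrier listed with a single transcript of 1415 bases, and for SLC25A31 with 1812 bases, the whole transcript was countable, and they had 0 counts and at most 2 counts. SLC25A34, with an own end, had 4, 4 and 10 counts and a mean of 0.365 TPM. SLC25A2 was at least 30.9-fold lower than its paralog SLC25A15 in every replicate, with the floor of 3 counts in each library. The 2 proteins are 87.4% identical. For the members with shared ends, a count near 0 gives no level. Among these were SLC25A10 (dicarboxylate), SLC25A14, SLC25A22 (glutamate), SLC25A25, SLC25A28 (mitoferrin-2), SLC25A29 and SLC25A46 (an outer membrane protein of mitochondrial dynamics) with 0 counts, and SLC25A17, SLC25A32, SLC25A39 and SLC25A41 with 1 to 3 counts over the 3 libraries. Among those with partly shared ends, SLC25A20 (the acylcarnitine carrier), SLC25A43 and SLC25A52 had 0 counts, SLC25A1 (the citrate carrier) had 2, 0 and 0, SLC25A13 (citrin) had 1, 0 and 0, and SLC25A47 had 2, 2 and 1. SLC25A1, SLC25A13, SLC25A20 and SLC25A43 had at most 4% of the 3′ end to themselves, SLC25A52 37.3% and SLC25A47, a carrier known from liver, 95.0%.

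Of 16 fixed paralog pairs, 3 had both members above 3 counts in every replicate. Besides the ADP/ATP pair, SLC25A23 exceeded SLC25A24 by 5.44 ± 0.11 on the log2 scale, a ratio of 43.4 that was alike in the 3 replicates (5.56, 5.41 and 5.34). SLC25A36 was below SLC25A33 by −4.07, −4.07 and −2.46 (mean −3.54 ± 0.93), with the smallest gap in replicate 3. In both pairs the higher member was higher in 3 of 3 replicates. In 11 pairs 1 member had 0 counts in every replicate. In 7 of the 11 the member at 0 had a wholly shared 3′ end, as for SLC25A28 beside SLC25A37 and SLC25A10 beside SLC25A11, and no fold is given for them. Protein identity within the 3 pairs with a ratio was 88.9% (SLC25A5 and SLC25A4), 61.3% (SLC25A23 and SLC25A24) and 60.8% (SLC25A36 and SLC25A33).

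Summed by role, the ADP/ATP carriers reached 7830, 8635 and 4952 TPM (7139 ± 1936). All other roles lay at or below 88.9 TPM in a replicate. The 7 other or little studied members summed to 80.4 ± 2.91 TPM, mostly from SLC25A53. The 4 ATP-Mg/phosphate carriers summed to 83.6, 88.9 and 46.5 TPM and the 8 cofactor carriers to 82.2, 81.5 and 52.3 TPM, mostly from SLC25A42. The pyrimidine nucleotide carriers summed to 69.2 ± 19.1 TPM and the iron carriers to 59.5 ± 2.34 TPM, with 0 counts for SLC25A28. Di- and tricarboxylate carriers summed to 50.2 ± 21.0 TPM, carried by SLC25A11. Amino acid carriers were lower, with 17.9 ± 3.88 TPM for the ornithine and basic group and 16.5 ± 3.38 TPM for the aspartate/glutamate group, while the glutathione carriers were at 17.0 ± 1.82 TPM. The uncoupling-protein-like carriers were at 1.76 ± 1.05 TPM, and the acylcarnitine carrier and SLC25A46 at 0. By CPM the order of roles differed, with the pyrimidine nucleotide carriers (176) above the ATP-Mg/phosphate carriers (161). The iron carriers (115) were above the cofactor carriers (92.0) on that scale. Sums of roles whose members share their 3′ ends hold only the members that had counts.

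**Figure D3:**
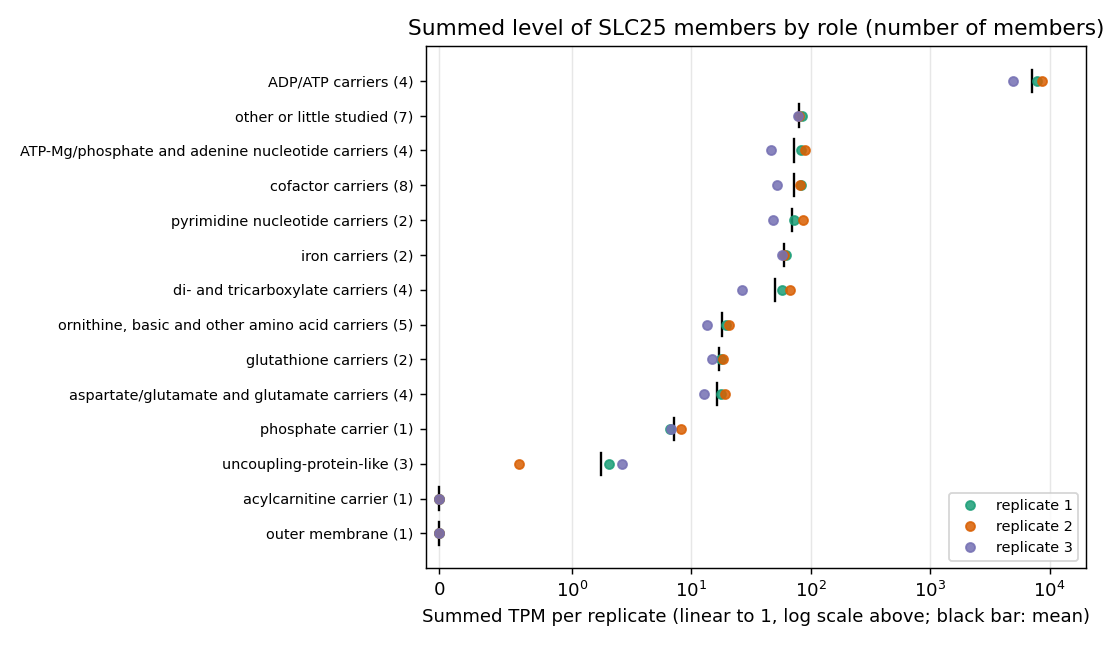
Summed TPM of the members of each role in each replicate (points) with the mean (black bar), on an axis that is linear to 1 and logarithmic above, with the number of members in brackets. The ADP/ATP carriers lie at 4952 to 8635 TPM and every other role at 88.9 TPM or below.

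The family's sum was 8334, 9165 and 5312 TPM (7604 ± 2028), and replicate 3 was the lowest. Mitochondrial genes took 22.8%, 15.4% and 44.2% of the TPM of the 3 replicates. With these genes left out of the total the family summed to 10792, 10831 and 9527 TPM (10383 ± 742), and without SLC25A5 to 655, 628 and 649 TPM (644 ± 13.8). Replicate 3 was set against the mean of replicates 1 and 2 for the 16 members that reached 50 counts in each library, and by TPM 14 of them were lower there (median log2 −0.55), against 89.3% of 4678 protein-coding genes (median −0.57). With mitochondrial genes left out, 9 were lower and 7 higher (median −0.01, against −0.03 for protein-coding genes). On that scale SLC25A11 was lowest in replicate 3 (−0.79) and SLC25A36 highest (1.28), both outside the range from −0.66 to 0.74 that held the middle of the protein-coding genes between their 5th and 95th percentiles. By CPM with mitochondrial genes left out, the replicates' coefficient of variation of these members was 15.1% at the median, against 12.5% for protein-coding genes. For SLC25A36 it was 65.4%. The coefficient was above the one that counting error alone would give in 14 of 16 members. Across the 48 members, which share the libraries and most of which are near 0, Pearson's r of log2(TPM + 1) between replicates was 0.990 to 0.995, and over the 19 expressed members other than SLC25A5 it was 0.951 to 0.988.

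**Figure D4:**
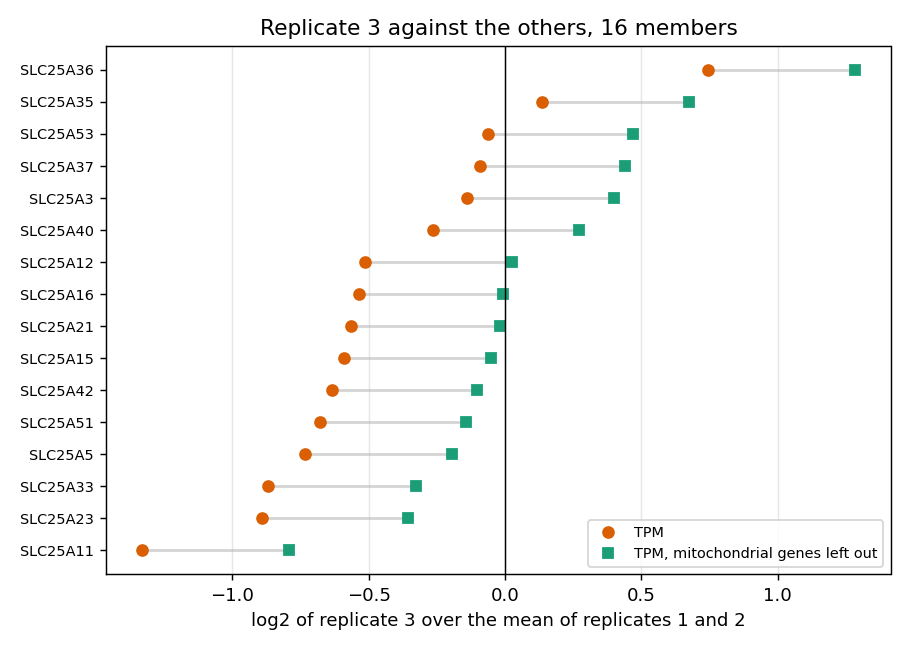
The log2 ratio of replicate 3 to the mean of replicates 1 and 2 for the 16 members with at least 50 counts in every replicate, from TPM (circles) and with mitochondrial genes left out of the total (squares). Circles lie below 0 for 14 members, and squares lie on both sides, from −0.79 (SLC25A11) to 1.28 (SLC25A36).

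The genes that import the carriers and the other mitochondrial transporters comprised 29 genes, of which 17 were expressed (58.6%, against 38.2% of protein-coding genes), 8 were in the high category (27.6%, against 12.5%) and 10 had at most 3 counts in every replicate (34.5%, against 50.9%). TOMM22, the central receptor of the TOM complex, had 13159, 11924 and 9165 counts (1212 ± 466 TPM). TOMM20, another receptor, had 12295, 10904 and 13969 counts (777 ± 121 TPM). TOMM70, the receptor that carrier precursors use, had 8345, 7927 and 7381 counts (409 ± 123 TPM). All of these lay below SLC25A5 and above every other SLC25 member in each replicate. Of the transporters that are not SLC25 members by name, VDAC3, an outer membrane porin, was at 911 ± 265 TPM and SFXN1, the serine transporter, at 500 ± 152 TPM. SFXN5 was at 50.2 ± 22.2 TPM, with 0% of its 3′ end its own. The chaperone TIMM10 was at 67.6 ± 11.9 TPM and TIMM10B at 60.2 ± 22.2 TPM. TIMM22, the channel of the TIM22 complex, had 0 counts with an own 3′ end, and UCP1 and MPC1L, also with own ends, had at most 2. MTCH1, UCP2, MPC2, SFXN3, SFXN4, TIMM9 and TIMM8B had 0 to 2 counts in each library and shared or partly shared ends. Of 12 listed genes with an own end 9 were expressed (75%, against 53.4%).

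**Figure D5:**
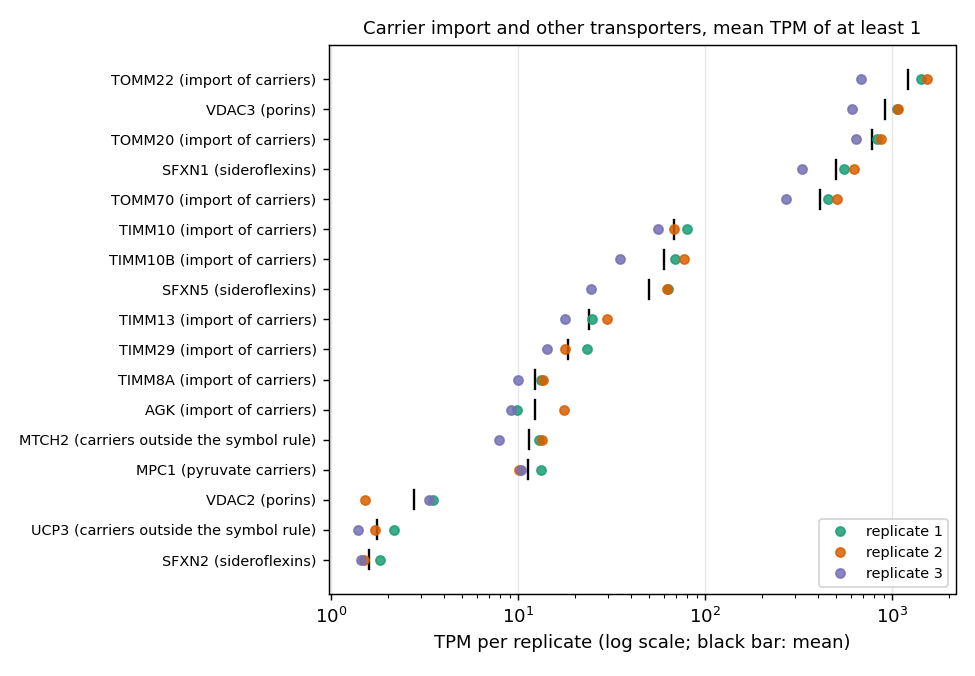
TPM in each replicate (points) with the mean (black bar), on a log axis, of the 17 expressed genes among the 29 that import carriers or move solutes across mitochondrial membranes, with the list of each in brackets. TOMM22, VDAC3, TOMM20, SFXN1 and TOMM70 lie at 270 to 1531 TPM, and the other 12 at 79.5 TPM or below.

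The family's protein signature was searched in the members. The family name stands for proteins of this kind, so the signature's frequency is a description and not independent support. Searched as proline, any residue, aspartate or glutamate, any pair of residues, then lysine, arginine or glutamine, the signature occurred at least once in 47 of 48 members, against 37.6% of 19752 protein-coding genes, and at least 3 times in 30 (62.5%, against 5.36%). SLC25A46 held no match and 8 members held 1, namely SLC25A17, SLC25A32, SLC25A34, SLC25A35, SLC25A44, SLC25A51, SLC25A52 and SLC25A53. All 4 ADP/ATP carriers held 3. The proteins were 274 (SLC25A26) to 678 (SLC25A12) residues long, with a median of 314. The longest, SLC25A12 and SLC25A13 (675 residues), which carry calcium-binding domains before the carrier domain, were 77.5% identical. At the 3′ end of the RNA, AATAAA or ATTAAA occurred in the last 40 bases of the canonical transcript in 39 members (81.2%), against 76.2% of protein-coding genes.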

How the data were processed

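Whole-number counts per Ensembl transcript, transcript lengths and TPM were deposited by the authors, 1 table per replicate, with no comparison between samples. Per the labels, total RNA (2 µg) was used for the libraries, although the molecule field names genomic DNA. The submitters' processing notes name Trimmomatic 0.38.0, HISAT2 2.2.1, featureCounts 2.2.1 and hg38, and the settings for shared or stranded reads are not given in the sources used here. The deposited TPM was recomputed from the deposited counts and lengths, with a largest difference of 1.75e-10. Because reads come from 3′ ends, division by length lowers long transcripts relative to short ones. Of 247541 listed transcripts, 223558 matched GENCODE 44 (GRCh38) without their version, and counts and TPM were summed per gene (pandas 2.3.3). Unmatched entries, 0.158% to 0.166% of counts, stayed in the totals. Values in each replicate are given for the 10 highest members, the highest of each role, measured paralogs and members with 100 counts and a CV over 0.4. Some further genes are named where a result turns on them. Proteins were translated and aligned (Biopython 1.88) from GENCODE coding sequences, since RefSeq proteins were not used here. Scripts were tested on simulated data. An item is not reported here by name. The members, roles, pairs and lists were chosen with earlier results of these data known. Alternatives were CPM, other bounds, mitochondrial genes left out, pseudogenes added and leaving out each replicate.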

Additional observations from a re-analysis of the deposited data

How the results depend on the processing

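No paired analysis was possible because the samples used here form 1 group. The number of expressed members was 36 with a mean TPM above 0 as the bound and 11 with at least 10 TPM, and it lay at 19 to 22 under all other settings (19 to 20 with 1 replicate left out). The same bounds gave 14 and 1 members in the high category (7 in every leave-one-out fit) and medians of 1.58 and 56.8 TPM. The median was 21.7 by CPM and 11.1 to 15.99 TPM with 1 replicate left out. With 0 counts as the floor, 12 members were at it, and with 1 replicate left out 21 to 23 were at or under 3 counts. The summed level was 10383 TPM with mitochondrial genes left out and 6823 to 8750 TPM with 1 replicate left out. The 3 highest members held 92.8% by CPM and 95.7% to 95.9% of TPM with 1 replicate left out. The carrier signature occurred at least 3 times in 30 members. Tracts of at least 2 bases gave 39 members with a promoter match. The mean correlation between replicates was 0.974 with a pseudocount of 0.1. Adding the second listing of SLC25A6, chosen after seeing the data, gave 21 expressed members. Of 202 further values for single members, pairs and roles, 148 moved by less than the SD between replicates, and 54 by more, all of those by CPM or with mitochondrial genes left out apart from SLC25A3 (12.2 TPM with pseudogenes added). The 3 paralog ratios kept their direction. Of the 9 neighbouring pairs apart by TPM, 4 were apart and 4 turned in mean by CPM, a comparison chosen after seeing the data. Depth limits the members under about 10 counts, and the counts do not show the level of members with shared 3′ ends.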

Other observations

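Genes named after members but outside the family were also counted. Of 7 antisense or divergent RNAs named after SLC25 genes, 4 were above 3 counts in some replicate. SLC25A21-AS1 had 135, 133 and 231 counts (17.2 ± 1.47 TPM), above SLC25A21 itself in each replicate. SLC25A5-AS1 had 76, 104 and 234 counts (8.60 ± 3.00 TPM) beside the 43153 to 46431 counts of SLC25A5. SLC25A25-AS1 had 57, 66 and 53 counts while SLC25A25, whose last 300 bases it overlaps in full, had 0. Strand settings are not stated, so reads of such overlapping pairs cannot be told apart. Of 44 processed copies or pseudogenes named after members, 15 had counts, 4 were above the floor and only SLC25A3P2 reached a mean of 1 TPM, with 16, 21 and 28 counts. Together the pseudogenes summed to 8.35 TPM.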
